A study of Mus musculus with 9 samples.

Results

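The 34 genes described here encode the core machinery of autophagy and of the lysosome, measured on arrays of mouse podocytes from OVE26 diabetic mice and from normal FVB mice. They were chosen by gene symbol: 16 act in autophagy, 17 belong to the lysosome or its proton pump, and Tfeb encodes a transcription factor that controls both sets. All 34 were measured, out of 18193 genes on the array with 1 symbol per probe set. The diabetic animals were 5 mice with the genotype label OVE-GFP, here called OVE26, and the normal animals were 4 mice labelled wild type and normal, here called FVB. Both groups had the FVB background and were aged 3 to 4 months. OVE26 mice carry a calmodulin transgene expressed in pancreatic beta cells and become diabetic early in life, so the model is one of insulin loss. Cells were released from bead-purified glomeruli with trypsin, and GFP-positive podocytes were sorted. The eGFP transgene was placed on the FVB background and brought into OVE26 by crossing. The sources used here do not name its promoter, and the label of the FVB mice names no GFP allele. The array titles name each array as a separate mouse, and neither sex nor batch is given in the labels.

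Autophagy delivers cytoplasm and worn organelles to the lysosome. A kinase complex built on ULK1 and a lipid kinase complex built on Beclin 1 start a membrane cup, and a ubiquitin-like cascade (ATG7, ATG3, ATG12, ATG5 and ATG16L1) attaches proteins of the ATG8 family to it. The closed autophagosome then fuses with a lysosome, whose proton pump (the V-ATPase) acidifies the lumen so that cathepsins and other hydrolases can work. Podocytes are long-lived cells that divide little, and high basal autophagy is a known feature of them.

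Many lysosomal genes carry an E-box with the core CACGTG near their transcript start, the site that TFEB and related factors bind, and in the CLEAR element of these genes the core is preceded by a T. Promoter windows from RefSeq (build GRCm38.p6), running from 250 bases before to 50 bases after the annotated start, were matched by symbol for 26 of the 34 genes, in 30 windows. CACGTG, which reads the same on both strands, was found in the windows of 10 of these 26 genes (38.5%), against 8.09% of the 27025 genes in the RefSeq table. The longer TCACGTG, or its reverse complement CACGTGA, was found in 8 genes (30.8%), against 4.29% of all genes, and every such match also counts as a match to the core. Those 8 genes are Atg3, Atg7, Atp6v0d1, Atp6v1a, Ctsa, Ctsd, Lamp1 and Mcoln1. The 150 bases before the start are shown for the gene with the largest difference in the array data (Ctsd), the proton pump gene whose groups did not overlap (Atp6v1a), the gene whose OVE26 arrays all lay lower (Atg3), and 2 membrane genes with several copies of the motif (Lamp1 and Mcoln1). Gabarapl1 is shown as a gene whose groups did not overlap and whose window has no core. Capitals mark TCACGTG or CACGTGA, which overlap where TCACGTGA is written in capitals, and each sequence runs 5′ to 3′ along the gene's own strand.
Ctsd (chr7:142387828-142387977, minus strand): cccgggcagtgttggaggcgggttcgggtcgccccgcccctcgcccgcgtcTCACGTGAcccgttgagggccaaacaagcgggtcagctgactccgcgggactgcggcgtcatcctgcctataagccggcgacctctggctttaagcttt
Atp6v1a (chr16:44139260-44139409, minus strand): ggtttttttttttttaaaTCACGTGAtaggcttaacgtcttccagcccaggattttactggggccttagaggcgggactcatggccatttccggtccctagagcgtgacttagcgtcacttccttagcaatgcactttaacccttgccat
Atg3 (chr16:45158679-45158828, plus strand): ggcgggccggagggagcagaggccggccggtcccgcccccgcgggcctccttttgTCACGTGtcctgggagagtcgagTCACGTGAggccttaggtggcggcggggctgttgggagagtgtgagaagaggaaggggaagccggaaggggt
Lamp1 (chr8:13159011-13159160, plus strand): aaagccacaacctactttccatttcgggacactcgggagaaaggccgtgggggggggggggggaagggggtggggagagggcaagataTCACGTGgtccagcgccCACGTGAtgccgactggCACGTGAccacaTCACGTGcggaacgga
Mcoln1 (chr8:3500369-3500518, plus strand): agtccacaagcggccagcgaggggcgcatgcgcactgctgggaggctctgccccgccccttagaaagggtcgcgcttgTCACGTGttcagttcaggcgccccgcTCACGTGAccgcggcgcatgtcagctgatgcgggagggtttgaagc
Gabarapl1 (chr6:129533042-129533191, plus strand): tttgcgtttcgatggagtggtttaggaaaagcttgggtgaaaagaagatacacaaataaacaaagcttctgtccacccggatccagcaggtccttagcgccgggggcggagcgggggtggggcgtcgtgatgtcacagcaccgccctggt

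Across the 34 genes, none differed between OVE26 and FVB podocytes at an adjusted p under 0.05 (limma, Benjamini-Hochberg over 18193 genes), where 0.605% of all genes did (86 higher and 24 lower). All values are log2 of the deposited intensity, and differences are OVE26 minus FVB on that scale. In 24 of the 34 genes (70.6%) the difference was above 0, against 52.6% of all genes and 49.9% of genes at or above the 40th percentile of mean level, and the median was 0.15, against 0.01 for all genes. All 5 OVE26 arrays lay above all 4 FVB arrays for 6 genes (17.6%), namely Map1lc3a, Map1lc3b, Gabarapl1, Ctsd, Npc2 and Atp6v1a. The same held for 3.64% of all genes and for 4.96% of genes at or above that percentile, a range that holds all 34 members. All OVE26 arrays lay below all FVB arrays for 1 gene, Atg3 (2.94%), against 2.62% of all genes and 3.97% of those at or above that percentile. At an unadjusted p under 0.05, 10 members were higher (29.4%, against 9.03% of all genes and 11.6% of the brighter ones) and 2, Ulk1 and Atg3, were lower (5.88%, against 6.07% and 8.35%). After centring on array medians these counts were 3 higher (8.82%, against 5.55% of all genes) and 2 lower (5.88%, against 11.6%). With the macrophage marker mean in the fit they were 6 (17.6%, against 9.76%) and 1 (2.94%, against 5.22%). With the mean of intercalated, principal and distal markers they were 4 (11.8%, against 5.72%) and 0 (3.73% of all genes were lower). These marker means were higher on all OVE26 arrays than on any FVB array, so that fit separates them from group poorly. The macrophage mean was above all FVB values on every OVE26 array but OVE26 2, and the same limit holds for its fit. Without the FVB 1 array the counts were 6 (17.6%, against 6.79%) and 2 (5.88%, against 4.5%). The standard errors of the members ran between 0.09 and 0.25, and the number of arrays limits the precision of every value. The median depended on scale: centring each array on its median gene shifted every difference by -0.10, which left a member median of 0.05 with 20 genes above 0 and 14 below, and an all-gene median of -0.09.

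**Figure D1:**
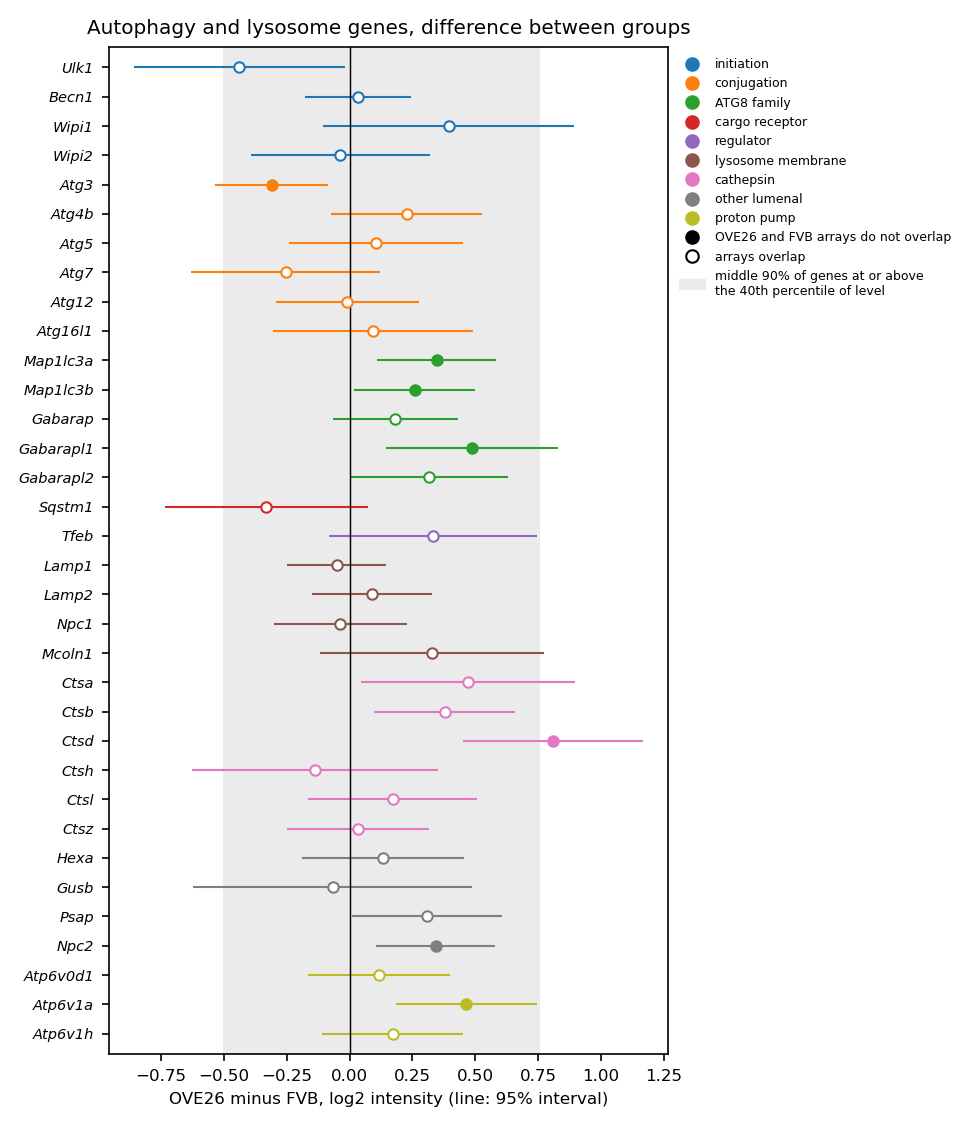
Difference between OVE26 and FVB podocytes for each of the 34 genes (horizontal axis, log2 intensity, OVE26 minus FVB, with its 95% interval), coloured by role, with filled points where the arrays of the groups do not overlap. The grey band holds the middle 90% of genes at or above the 40th percentile of level, and only Ctsd, at 0.81, lies outside it.

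By list, the podocyte markers had the highest median level, 10.69, followed by the endothelial markers at 8.42. All 15 measured podocyte markers were bright, with Podxl at 12.99 and 13.10 and Synpo at 12.89 and 13.03 in OVE26 and FVB podocytes on average, and none differed at an adjusted p under 0.05. The difference was below 0 in 14 of the 15, against 8620 of all 18193 genes, and their median was -0.23. At an unadjusted p under 0.05, 6 were lower, against 6.07% of all genes and 8.35% of those at or above the 40th percentile. In 5, all OVE26 arrays lay below all FVB arrays, against 2.62% and 3.97%. The mean level of the 15 markers was between 10.60 and 11.08 in OVE26 podocytes, against 11.02 to 11.29 in FVB podocytes. On 1 OVE26 array it lay inside the FVB range. Markers of other kidney cells were present as well, some at similar levels. Over all 9 arrays Itga8 (mesangial) averaged 11.48, Acsm2 (proximal tubule) 11.19, Umod (distal) 11.07 and Kdr (endothelial) 10.40, against 10.69 for Wt1. The purity of the sorts was not tested. Of these other markers 7 passed the test, all higher in OVE26, where 0.473% of all genes were called higher. They were Slc4a9, Slc26a4 and Atp6v0d2 of intercalated cells (3 of 11) and Fxyd4 of principal cells (1 of 13 principal and distal markers). The rest were the keratins Krt8, Krt18 and Krt19 of the parietal list (3 of 8). The other 5 of that list did not pass, with Cldn1 at 0.04, Cldn2 at 0.03, Pax8 at 0.47, Cd44 at 0.80 and Prom1 at 1.83. Of 21 macrophage markers 18 were above 0 (52.6% of all genes were) and 0 passed. Mrc1, at -1.35, Itgam and Cx3cr1 were below 0, and Csf1r, the brightest of the list, was at 0.03. Of the 21, 11 lay below the 40th percentile of mean level. Among the 25% of genes with the lowest level were 4 of them, Adgre1, Itgam, C1qc and Cx3cr1. The OVE26 2 array stood apart with a proximal tubule marker mean of 6.19, against 7.76 to 8.46 on the other 8 arrays. In RNA from sorted bulk cells, more cells of a type and more RNA per cell cannot be told apart.

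In the ATG8 family 4 of 5 genes were higher at an unadjusted p under 0.05 (9.03% of all genes were), and 3 of 5 had all OVE26 arrays above all FVB arrays (3.64% of all genes did). The count of 4 was 1 after centring on array medians (5.55% of all genes were higher). It was 1 with the macrophage mean in the fit (9.76%) and 0 with the mean of intercalated, principal and distal markers (5.72%). Without the OVE26 2, OVE26 4, FVB 1, FVB 3 or FVB 4 array in turn it was 2 (6.79% to 9.7% of all genes). These small ubiquitin-like proteins are attached to the lipid of the autophagosome membrane, where they recruit cargo receptors. All 5 genes were above 0, with a median of 0.31, and they were also above 0 after quantile normalization (median 0.30) and after centring on array medians (median 0.21). Gabarap alone turned below 0, at -0.04, when the mean level of intercalated, principal and distal markers entered the fit. The mean over the 5 genes was 10.36, 10.45, 10.31, 10.65 and 10.38 on OVE26 arrays 1 to 5, against 10.14, 10.20, 10.06 and 10.05 on FVB arrays 1 to 4. The groups did not overlap in this mean, and the OVE26 4 array, which had the lowest podocyte marker mean (10.60), was the highest. With the macrophage marker mean in the fit the 5 differences lay between 0.27 for Gabarapl2 and 0.41 for Gabarapl1.

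Map1lc3a, one of the LC3 genes, measured 9.96, 9.86, 9.96, 9.997 and 9.70 in OVE26 podocytes, against 9.70, 9.60, 9.50 and 9.39 in FVB podocytes. The lowest OVE26 array lay just above the highest FVB array, with the OVE26 5 and FVB 1 arrays within 0.01 of each other. The difference was 0.35 (SE 0.11, limma adjusted p = 0.160). Its other probe set, which is dimmer, showed a difference of 0.00 (mean 6.71 in OVE26 and 6.70 in FVB). Map1lc3b, whose product LC3B is the usual marker of autophagosomes, measured 11.45, 11.54, 11.31, 11.69 and 11.31 in OVE26 podocytes, against 11.20, 11.27, 11.22 and 11.12 in FVB podocytes. The groups were separate by a narrow margin, and the FVB arrays lay close together. Its difference was 0.26 (SE 0.11, limma adjusted p = 0.297). Gabarapl1, a member of the GABARAP branch, measured 11.04, 11.11, 11.01, 11.67 and 11.35 in OVE26 podocytes, against 10.64, 10.97, 10.64 and 10.74 in FVB podocytes. The OVE26 4 array was highest and the FVB 2 array came nearest to the diabetic group. This was a 1.40-fold difference (0.49, SE 0.15, limma adjusted p = 0.175). The second probe set of the gene gave 0.47, but there the groups overlapped, with OVE26 3 at 10.08 and FVB 2 at 10.19. Without the OVE26 4 array the Gabarapl1 difference was 0.38. The remaining 2 family members overlapped between groups: Gabarapl2 averaged 9.10 ± 0.25 in OVE26 and 8.78 ± 0.12 in FVB podocytes (SD, n = 5 and 4), and Gabarap averaged 10.47 ± 0.16 and 10.29 ± 0.11.

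**Figure D2:**
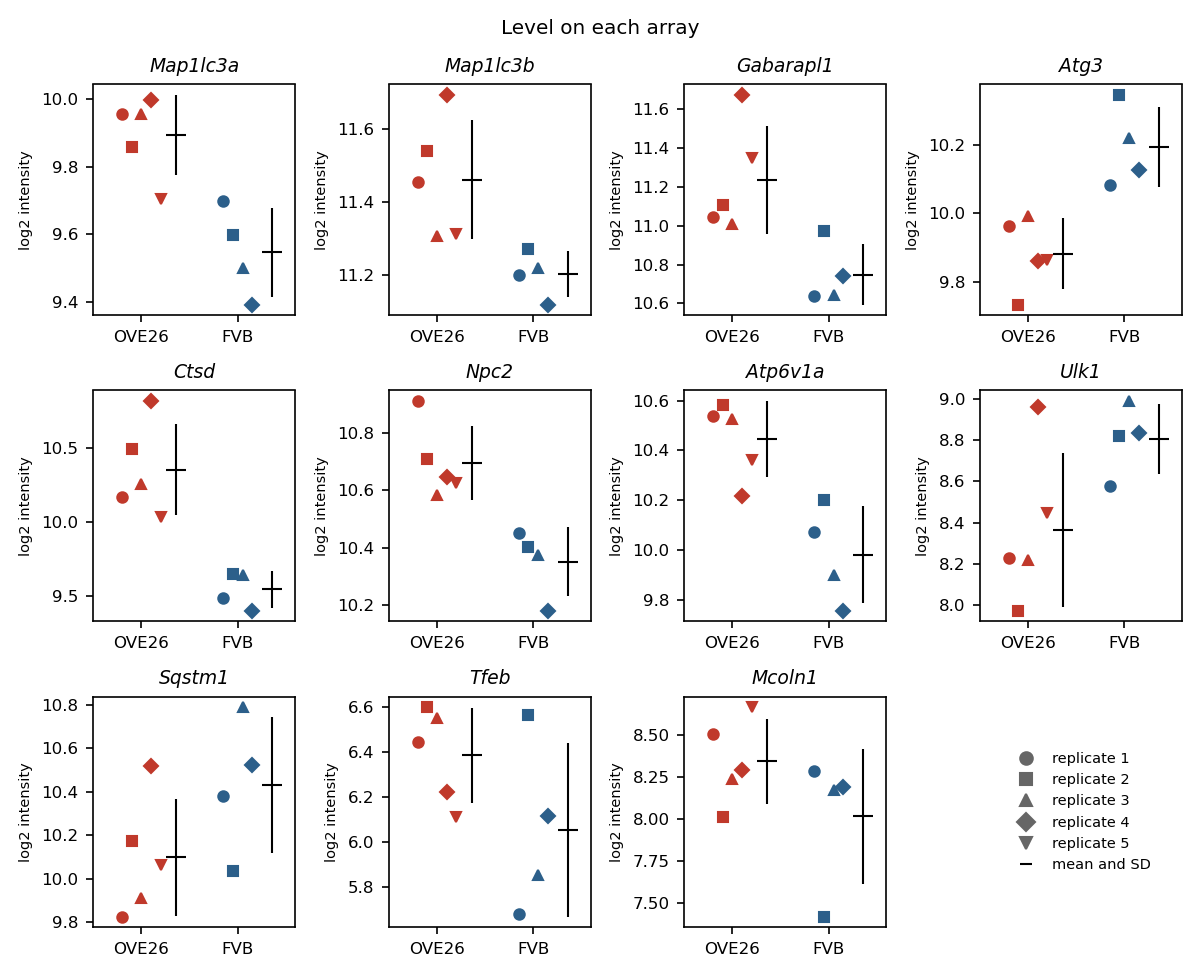
Level of 11 genes on each array (vertical axis, log2 intensity, scales differ between panels), with OVE26 arrays in red to the left of FVB arrays in blue, and the mean with its SD in black. The groups are separate for Map1lc3a, Map1lc3b, Gabarapl1, Atg3, Ctsd, Npc2 and Atp6v1a and overlap for Ulk1, Sqstm1, Tfeb and Mcoln1.

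The genes that start autophagy did not share a direction. Ulk1, the kinase that receives nutrient signals, measured 8.23, 7.97, 8.22, 8.96 and 8.45 in OVE26 podocytes, against 8.58, 8.82, 8.99 and 8.84 in FVB podocytes. The OVE26 4 array lay among the FVB arrays, and every other diabetic array lay below all of them. The difference was -0.44 (SE 0.19, limma adjusted p = 0.308), and it was -0.59 without the OVE26 4 array and -0.01 with the mean of intercalated, principal and distal markers in the fit. Becn1, which encodes Beclin 1, differed by 0.03 with a 95% interval of -0.18 to 0.24. Of the WIPI proteins, which bind the lipid of the forming membrane, Wipi1 averaged 7.15 ± 0.47 in OVE26 and 6.75 ± 0.17 in FVB podocytes, and Wipi2 averaged 7.39 ± 0.09 and 7.42 ± 0.36 (SD, n = 5 and 4). The Wipi1 difference of 0.39 (SE 0.22) was -0.07 with the macrophage marker mean in the fit.

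Within the conjugation cascade, Atg3 was the 1 gene whose groups did not overlap. Its product is the enzyme that hands ATG8 proteins to lipid. Atg3 measured 9.96, 9.73, 9.99, 9.86 and 9.87 in OVE26 podocytes, against 10.08, 10.35, 10.22 and 10.13 in FVB podocytes. The diabetic arrays sat together just under the lowest FVB array. The difference was -0.31 (SE 0.10, 0.806-fold, limma adjusted p = 0.182). It lay between -0.47 and -0.25 over the 24 alternative fits, some of which change only the variance or the set of genes tested. The limma adjusted p over those fits was 0.0953 to 0.685. The second, dimmer probe set of Atg3 gave -0.26 with overlapping groups, OVE26 5 being at 6.35 and FVB 4 at 5.87. For the other 5 genes the differences were between -0.26 and 0.23: Atg7, the activating enzyme, at -0.26, Atg12 at -0.01, Atg16l1 at 0.09, Atg5 at 0.10 and Atg4b, a protease that prepares and recycles ATG8 proteins, at 0.23. All 5 overlapped between groups. Atg7 and Atg12 each had another probe set of the opposite sign, at 0.36 and 0.30.

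Sqstm1 encodes p62, a receptor that ties ubiquitinated cargo to ATG8 proteins and is itself degraded by autophagy. Its brightest probe set measured 9.82, 10.18, 9.91, 10.52 and 10.06 in OVE26 podocytes, against 10.38, 10.03, 10.79 and 10.52 in FVB podocytes. The groups overlapped, since the OVE26 4 array matched FVB 4 and the FVB 2 array lay within the diabetic range. The difference was -0.33 (SE 0.18, limma adjusted p = 0.432). The second, dimmer probe set gave 0.48 with the OVE26 4 array far above the rest, and the mean of both gave 0.08, so the direction depends on the probe set. Tfeb measured 6.45, 6.60, 6.55, 6.22 and 6.11 in OVE26 podocytes, against 5.68, 6.57, 5.85 and 6.12 in FVB podocytes. Its arrays overlapped, with FVB 2 near the top of the diabetic range. The difference was 0.33 (SE 0.19, limma adjusted p = 0.444), 0.50 without the FVB 2 array and -0.21 with the mean of intercalated, principal and distal markers in the fit.

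Ctsd had the largest difference of the 34 genes. It encodes cathepsin D, the main aspartic protease of the lysosome. It measured 10.17, 10.49, 10.25, 10.82 and 10.03 in OVE26 podocytes, against 9.48, 9.65, 9.64 and 9.40 in FVB podocytes. The groups were separate by a wide gap, with OVE26 4 the highest array and the FVB arrays close together. The mean was 10.35 ± 0.31 in OVE26 and 9.54 ± 0.12 in FVB podocytes (SD, n = 5 and 4), a 1.75-fold difference of 0.81 (SE 0.16, 95% interval 0.45 to 1.17, limma adjusted p = 0.0570). Leaving out each array in turn gave 0.69 to 0.89 with adjusted p between 0.0552 and 0.182. The adjusted p was 0.0440 over genes at or above the 40th percentile of level, 0.0394 with an intensity trend and robust variance and 0.0342 with array weights, and it stayed above 0.05 in the other 21 of 24 alternatives.

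The other cathepsins differed less. Ctsb, a cysteine protease, averaged 11.08 ± 0.20 in OVE26 and 10.70 ± 0.13 in FVB podocytes, and all of its 4 other probe sets were above 0, between 0.31 and 1.19. Ctsa, a carboxypeptidase that also shields other enzymes, averaged 8.45 ± 0.12 in OVE26 and 7.98 ± 0.45 in FVB podocytes (SD, n = 5 and 4). Ctsb and Ctsa differed by 0.38 (SE 0.13) and 0.47 (SE 0.19) with overlapping arrays, and limma's adjusted p was 0.192 and 0.285. The FVB 1 array set much of the Ctsa spread, at 7.34, against 8.08 to 8.40 on the other FVB arrays. Ctsl, Ctsz and Ctsh, which encode further cysteine proteases, differed by 0.17, 0.03 and -0.14.

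Cathepsins are also expressed in macrophages, so the macrophage marker levels are given beside them. The mean of the 21 macrophage markers was 5.59, 5.00, 6.22, 5.78 and 5.71 on OVE26 arrays 1 to 5, against 4.84, 5.08, 4.74 and 4.97 on FVB arrays 1 to 4. On the OVE26 2 array this mean lay within the FVB range, and Ctsd on that array was 10.49, above the highest FVB value of 9.65. The same array had the highest intercalated mean (6.76) and the highest principal and distal mean (8.41). Which cells the Ctsd RNA came from was not tested. With the macrophage mean in the fit the difference of Ctsd was 0.90 (SE 0.26, limma adjusted p = 0.203) and that of Ctsb was 0.20 (SE 0.19, limma adjusted p = 0.672). With the mean of intercalated, principal and distal markers it was 0.69 for Ctsd (SE 0.29, limma adjusted p = 0.518). The Ctsd SE was 0.16 with neither mean in the fit, and both means are hard to tell apart from group.

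**Figure D3:**
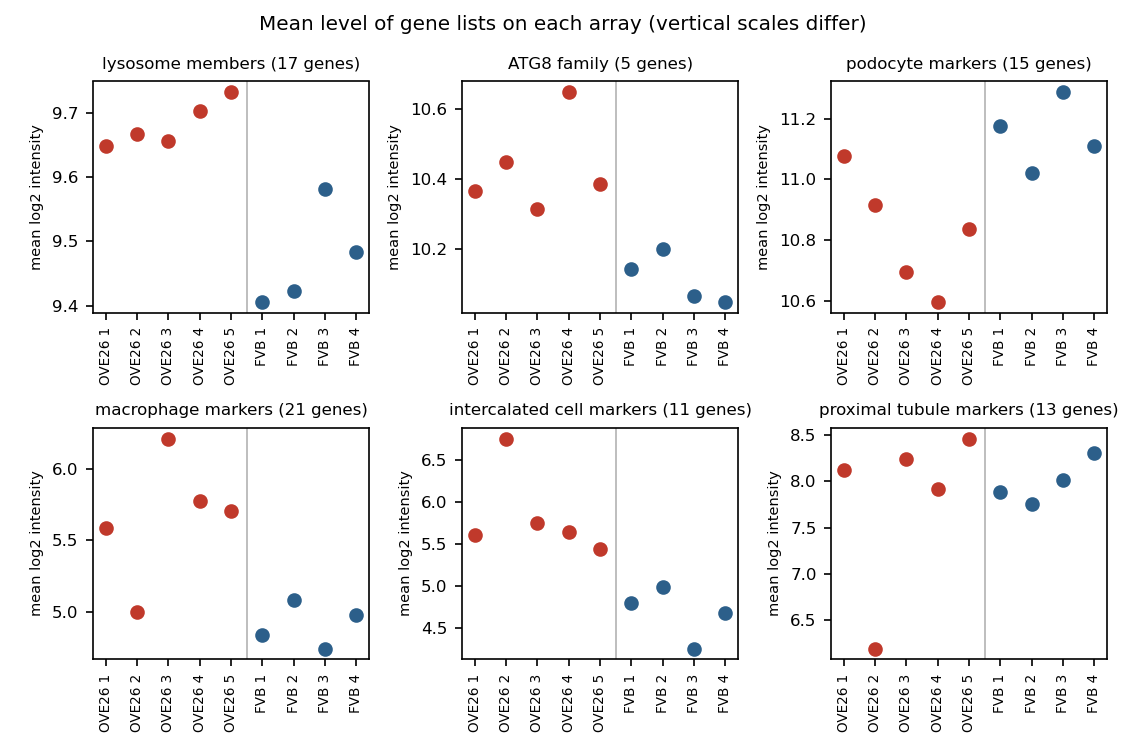
Mean log2 intensity of the lysosome genes, the ATG8 family and 4 marker lists on each array (vertical scales differ), with OVE26 arrays in red on the left and FVB arrays in blue on the right. The lysosome mean is 9.65 to 9.73 in OVE26 and 9.41 to 9.58 in FVB podocytes, and the OVE26 2 array has the lowest proximal tubule mean, the highest intercalated cell mean and a macrophage mean within the FVB range.

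Among the other lumenal proteins, Npc2 had groups that did not overlap. NPC2 binds cholesterol in the lumen and passes it to NPC1 in the membrane. Npc2 measured 10.91, 10.71, 10.58, 10.64 and 10.62 in OVE26 podocytes, against 10.45, 10.40, 10.38 and 10.18 in FVB podocytes. All diabetic arrays were higher, and OVE26 1 was the highest. The difference was 0.34 (SE 0.11, limma adjusted p = 0.165). The next brightest probe set of Npc2 gave 0.21, again without overlap, and dimmer ones gave 0.10 and -0.10. The mean over its 4 probe sets gave 0.14. Psap, the precursor of the saposins that help degrade sphingolipids, averaged 10.28 ± 0.22 in OVE26 and 9.98 ± 0.15 in FVB podocytes (SD, n = 5 and 4), with overlapping arrays. Its other probe set, also bright with a mean of 9.52, gave 0.06 (SE 0.09), against 0.31 (SE 0.13) for the one used. Hexa, which encodes the alpha subunit of hexosaminidase A, differed by 0.13. Gusb, which encodes beta-glucuronidase, differed by -0.07 and had the largest standard error of the 34, 0.25.

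Of the 4 genes of the lysosomal membrane, Mcoln1 had the largest difference and the other 3 were near 0. Lamp1, one of the most abundant membrane proteins of the lysosome, averaged 11.99 ± 0.08 in OVE26 and 12.04 ± 0.05 in FVB podocytes, and its difference had a 95% interval of -0.25 to 0.14. Lamp2, which is needed for fusion with autophagosomes, differed by 0.09 on its brightest probe set and by 0.55 (SE 0.16) on another, for which limma's adjusted p over all probe sets was 0.157. Npc1 differed by -0.04. Mcoln1, which encodes the calcium channel TRPML1, measured 8.50, 8.01, 8.24, 8.29 and 8.66 in OVE26 podocytes, against 8.28, 7.41, 8.17 and 8.19 in FVB podocytes. The groups overlapped, and the FVB 2 array lay far below the others. The difference of 0.33 (SE 0.20, limma adjusted p = 0.488) became 0.13 without the FVB 2 array.

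The 3 proton pump genes were all above 0. Atp6v1a, which encodes the catalytic subunit that splits ATP, measured 10.54, 10.58, 10.53, 10.22 and 10.36 in OVE26 podocytes, against 10.07, 10.20, 9.90 and 9.75 in FVB podocytes. The groups were separate, with OVE26 4 only just above FVB 2. The difference was 0.46 (SE 0.13, 1.38-fold, limma adjusted p = 0.120), and the values without 1 array in turn were 0.39 to 0.54. The second probe set gave 0.45, but there the groups overlapped, with OVE26 4 at 7.90 and FVB 2 at 8.09. Atp6v1h differed by 0.17 and Atp6v0d1 by 0.12, both with overlapping arrays. Intercalated cells carry large amounts of this pump, and the mean of the 11 intercalated cell markers was higher in all OVE26 arrays, at 5.44 to 6.76, against 4.25 to 4.99 in FVB podocytes. The principal and distal marker mean was also higher in all OVE26 arrays, at 7.31 to 8.41, against 6.08 to 7.13 in FVB podocytes. With the mean of intercalated, principal and distal markers in the fit, the Atp6v1a difference was 0.23 (SE 0.21, limma adjusted p = 0.752) and that of Atp6v0d1 was -0.10. Group and this covariate are hard to tell apart in that fit, where the Atp6v1a SE was 0.21, against 0.13 without it.

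The arrays of one group did not move evenly over the members. The OVE26 4 array was the highest of all 9 for 11 of the 34 genes (32.4%), and the FVB 1 and FVB 4 arrays were the lowest for 8 and 7. These counts were not made over all genes, so they may not be particular to the members. The mean of the 17 lysosome genes was 9.65, 9.67, 9.66, 9.70 and 9.73 on OVE26 arrays 1 to 5, against 9.41, 9.42, 9.58 and 9.48 on FVB arrays 1 to 4. The groups did not overlap in this mean, and FVB 3 came nearest to the diabetic arrays. The mean of the 16 autophagy genes was 8.66, 8.67, 8.60, 8.85 and 8.66 on OVE26 arrays, against 8.57, 8.63, 8.70 and 8.58 on FVB arrays, and there the groups overlapped.

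Promoter motifs and differences can be read side by side. Ctsd carries the flanked core at -98 and also at -245, outside the stretch shown, and Atp6v1a carries it at -131, counted in bases from the start. Atg3, lower in all OVE26 arrays, carries it at -94 and -71. Lamp1, which differed by -0.05, has 4 copies within the 150 bases shown, and Mcoln1 has copies at -71 and -45. The median difference was 0.22 over the 8 genes with the flanked core, with 5 of 8 above 0, and 0.20 over the 16 genes with a window and no core, with 12 of 16 above 0. A match is a run of letters in the window, and no binding was measured.

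**Figure D4:**
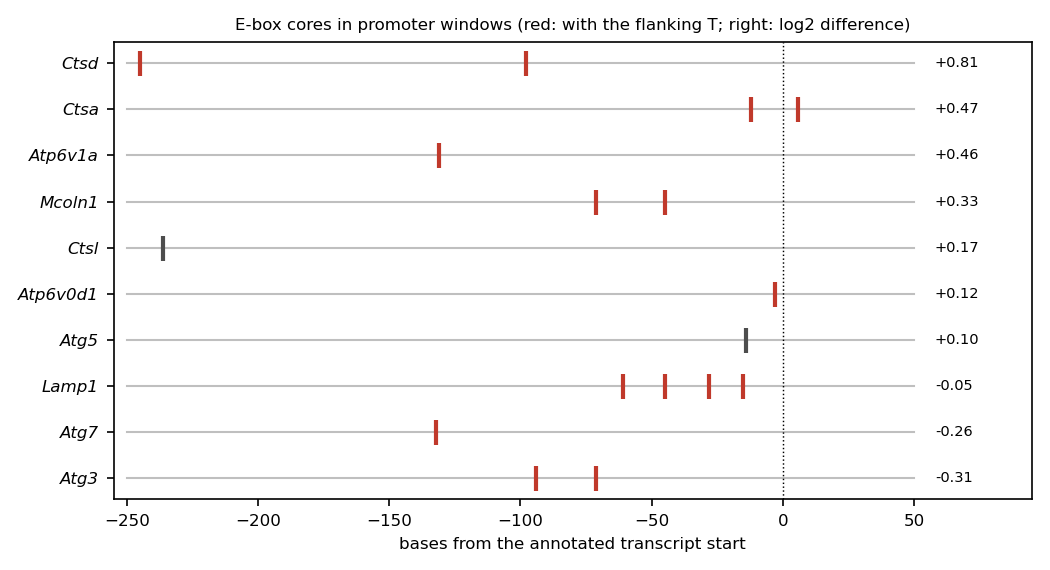
Position of the core CACGTG in the promoter windows of the 10 genes that hold it (horizontal axis, bases from the annotated start), in red with the flanking T and in grey without, ordered by the OVE26 minus FVB difference in log2 intensity printed at the right. Genes with the flanked core span differences from 0.81 for Ctsd to -0.31 for Atg3.

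Other genes of the pathway, outside the 34, were read from 8 lists that hold 159 genes, of which 148 were measured. Of these, 2 were higher in OVE26 podocytes at an adjusted p under 0.05, 0 were lower and 146 did not pass, with a median difference of 0.04. Over all genes 0.473% were higher and 0.132% lower. Lgmn, which encodes the lysosomal protease legumain, measured 8.01, 8.86, 8.27, 8.74 and 8.31 in OVE26 podocytes, against 7.05, 7.30, 7.48 and 7.57 in FVB podocytes. It rose 2.12-fold (1.08, SE 0.19, limma adjusted p = 0.0410), and every diabetic array was above every FVB array. Atp6v0d2, a pump subunit found in intercalated cells and osteoclasts, measured 8.23, 8.46, 8.47, 9.17 and 6.66 in OVE26 podocytes, against 5.66, 5.94, 4.71 and 4.98 in FVB podocytes. It rose 7.35-fold (2.88, SE 0.46, limma adjusted p = 0.0290), with OVE26 5 the lowest diabetic array, and it is also on the intercalated cell list. Both calls were lost without OVE26 3 (adjusted p of 0.0783 for Lgmn and 0.0769 for Atp6v0d2), without OVE26 4 (0.0754 and 0.0520), without FVB 1 (0.136 and 0.0976), without FVB 3 (0.112 and 0.101) and without FVB 4 (0.0932 and 0.101), all from limma. Lgmn was also lost without OVE26 5, at 0.0788, and Atp6v0d2 without OVE26 1, at 0.0556. With the macrophage mean in the fit Lgmn differed by 1.36 and Atp6v0d2 by 2.71 (limma adjusted p = 0.149 and 0.196). With the intercalated, principal and distal mean Lgmn differed by 0.75 and Atp6v0d2 by 2.10 (limma adjusted p = 0.519 and 0.482).

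The list of other lysosomal enzymes had a median difference of 0.20, with 1 of 33 genes past the test and all OVE26 arrays above all FVB arrays in 7, where 0.605% of all genes passed and 3.64% had all OVE26 arrays above. Ctss, a cathepsin of antigen-presenting cells that is also on the macrophage list, differed by 2.61 (SE 0.55, limma adjusted p = 0.0711), and Ctsc, which activates granule proteases, by 1.72 (SE 0.42, limma adjusted p = 0.102). With the macrophage mean in the fit the Ctss difference was 0.79 (limma adjusted p = 0.479), and Ctss is part of that mean. The other pump subunits, several of which are also on the intercalated cell list, had a median of 0.16, with 1 of 19 past the test and 6 with all OVE26 arrays above. Atp6v1f, a subunit of the pump's cytosolic sector, differed by 0.57 (limma adjusted p = 0.113), and by 0.083 with the intercalated, principal and distal mean in the fit (limma adjusted p = 0.910). Atp6v0a1, a membrane subunit, went the other way, at 9.35, 8.97, 8.83, 9.16 and 9.24 in OVE26 podocytes, against 9.76, 9.63, 9.79 and 9.73 in FVB podocytes. All diabetic arrays were lower, and the difference was -0.62 (SE 0.12, limma adjusted p = 0.0570), which was -0.35 with the intercalated, principal and distal mean in the fit (limma adjusted p = 0.602).

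The remaining 6 lists had 0 genes past the test and medians between -0.06 and 0.11. In the autophagy core (21 genes, median 0.02), Vmp1, a membrane protein needed early in autophagosome formation, differed by 0.49, Atg4a by 0.40 and Rb1cc1, which encodes the ULK1 partner FIP200, by -0.30. Among 12 cargo receptor and mitophagy genes (median 0.02), Wdfy3, an adaptor for protein aggregates, differed by -0.49, Phb2 by 0.31 and Pink1, the kinase that marks damaged mitochondria, by 0.33. Plekhm1, Vps18 and Rab7, which act in fusion with the lysosome (15 genes, median -0.03), differed by 0.51, -0.30 and -0.18. Of 17 other membrane genes (median -0.06), Slc17a5, the sialic acid exporter, differed by 0.45, Abcd4 by 0.37 and Tmem175 by -0.36. In the control of mTORC1 and TFEB (23 genes, median 0.00), the TFEB relative Mitf differed by 0.39, Rragd by 0.71 and the mTOR inhibitor Deptor by 0.67. Gga2, Gnptab and Sort1, which act in sorting of enzymes to the lysosome (8 genes, median 0.11), differed by 0.91, 0.34 and 0.25. For all 18 of these genes limma's adjusted p was between 0.155 and 0.495.

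**Figure D5:**
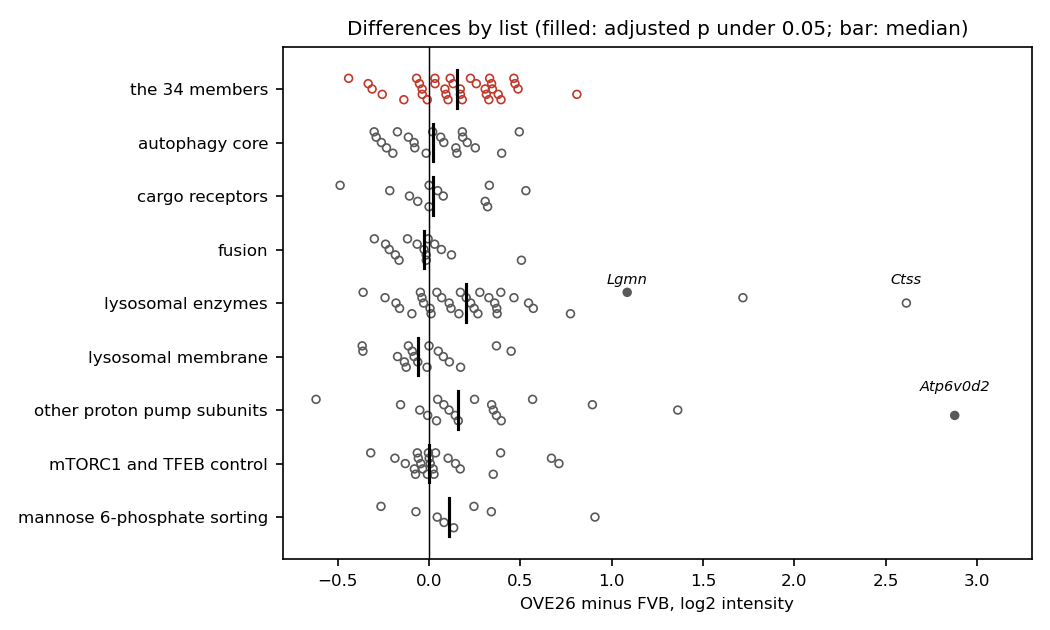
Differences of the 34 genes (top, red) and of the 8 other pathway lists (grey), with 1 point per gene on a log2 intensity axis, OVE26 minus FVB, filled where the adjusted p is under 0.05 and with a black bar at each median. Lgmn at 1.08 and Atp6v0d2 at 2.88 are filled, and Ctss at 2.61 is open.

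Probe sets of the same gene mostly ran the same way. The 34 genes have 86 probe sets, and 7 genes have 1 each. Of 40 other probe sets at or above the 40th percentile of level, 33 had the sign of the one used and 7 had the opposite sign, 1 each for Wipi2, Atg7, Atg12, Sqstm1, Ctsa, Ctsz and Atp6v1h. Ctsd and Gabarap have 1 probe set each, so no second reading of them exists on these arrays.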

How the data were processed

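RNA of sorted podocytes was isolated with a PicoPure kit, then amplified and biotin-labelled with NuGEN reagents, per the labels' protocols. The authors deposited a linear intensity per probe set, processed with RMA and Partek per the submitters' processing notes, which name no version. Median log2 intensity per array was 5.07 to 5.15. Of 45101 probe sets, 64 controls, 932 with several symbols and 9160 with none were left out, and symbols came from the platform annotation. The brightest of a gene's probe sets was used (9010 genes had several), giving 18193 genes, dim ones included. Group differences of log2 values were fitted with lmFit and eBayes of limma (version 3.58.1, run under R 4.3.3), with group as sole term, 2-sided tests and 2.94 prior degrees of freedom, and the procedure was tested on simulated data. P-values measure the spread between arrays, which may hold differences between sorts and amplifications. The members and the lists were chosen with earlier results of these data known, so lists have no p of their own. Values per array are given for members with non-overlapping groups and for the smallest p in each role. From other lists, genes past the test and the 3 smallest p at or above the 40th percentile of level are named, and from marker lists the genes past the test and examples from the brightest. The alternatives cover probe sets, normalization, filters, variance models, thresholds, marker means as covariates and leaving out arrays. The intercalated, principal and distal mean was higher on all OVE26 arrays, so a fit that holds it separates it from group poorly. The macrophage mean was higher on every OVE26 array but OVE26 2, so its fit separates it from group poorly as well.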

Additional observations from a re-analysis of the deposited data

Results flagged for a closer look

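Within each group the highest or lowest array was compared with the nearest other array, by Dixon's 95% critical value, for the 34 genes and 3 list means in both groups. Of 74 such groups 4 had an array that stood apart, and chance alone gives about 1 in 20. Mcoln1 on the FVB 2 array was 7.41, against 8.17 to 8.28 on the other FVB arrays. Npc1 on FVB 3 was 8.16, against 7.83 to 7.87. Hexa on OVE26 3 was 10.86, against 11.31 to 11.45 on the other OVE26 arrays. The mean level of the 16 autophagy genes on OVE26 4 was 8.85, against 8.60 to 8.67.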

How the results depend on the processing

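Of 24 alternative fits, 17 members kept 1 sign in all and 17 changed sign in at least 1, always without passing the test. The count of members called was 1 (Ctsd) with the filter on dim genes, with trend and robust variance, with array weights and at an adjusted p under 0.1, and 0 elsewhere. The median difference of the members was 0.053 with centring on array medians, 0.22 with the intercalated, principal and distal mean in the fit and 0.11 to 0.20 without 1 array in turn.

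The count of all genes called, 110, became 166 with the dim filter, 179 with trend and robust variance, 396 with array weights, 15 at 0.01, 375 at 0.1, 2 with the macrophage mean, 41 with a sex score, 0 with the intercalated, principal and distal mean (1718 had an unadjusted p under 0.05) and also 0 in a linear model without limma's moderation (2518 unadjusted). Without 1 array it was 8 (FVB 3) to 367 (FVB 2), with 23 without OVE26 3 or without FVB 1, 28 without FVB 4, 30 without OVE26 5 and 61 without OVE26 4. The split was 67 higher and 52 lower after centring and 65 and 30 after quantile normalization.

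In the other pathway lists the count of 2 became 1 with every probe set tested singly, with quantile normalization and with centring, 6 with array weights, 5 at 0.1, and 0 without moderation, at 0.01, with the macrophage mean, the intercalated, principal and distal mean or the sex score, and 0 to 7 without 1 array. It was 0 without OVE26 2 and OVE26 4 together, a setting chosen after seeing the data. For these lists the normalization, variance, block, threshold and covariate settings were also added after seeing the data.

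The deviations of same-numbered arrays from the group means correlated by 0.13, 0.04, -0.21 and 0.01. Differently numbered arrays correlated by -0.28 to 0.23. Whether arrays of the same number shared a sort or an amplification was not tested. With the replicate number as a block, 19 genes, 0 members and 0 genes of the other lists were called, and the member median was 0.15. In that fit 7 members (20.6%, against 7.74% of all genes), 2 of them of the ATG8 family, were higher at an unadjusted p under 0.05.

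Small samples, amplified RNA and mixed cells limit these values. Standard errors of the members were 0.09 to 0.25, so differences of that size are not resolved. Larger ones did not pass the test either, up to 0.81 for Ctsd. No member was dim: the lowest stood at the 47.4th percentile of mean level.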
